A study of Mus musculus with 27 samples.

Results

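The 10 genes Gpx1, Gpx3, Gpx4, Selenop, Cat, Txnrd1, Nqo1, Gclc, Gclm and Hmox1 of the antioxidant system of the liver were followed across the lobule and through pregnancy. The genes were chosen by symbol, as 10 of the 21823 genes in the expression table, and all 10 passed the filter on low values that left 12952 genes for testing. The livers came from female mice labelled wild-type (WT) and C57BL/6, a strain that the study's methods give as C57BL/6N, and the labels name no treatment. They were either non-pregnant (NP) or pregnant at day 8 (dpc8) or day 16 (dpc16) post coitum, which are mid- and late gestation. Laser microdissection separated zone 1 around the portal vein, zone 2 in the midlobule and zone 3 around the central vein, and each of the 9 groups of stage and zone held 3 RNA-seq libraries, 27 in all. The labels do not say which libraries came from the same animal or whether those of a group came from separate animals, so p-values measure the spread between these libraries, which may be partly technical. Ages are not given for each group in the labels. Because a zone is a mixture of cells, fewer cells of a type and less RNA per cell cannot be told apart in these levels.

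Hepatocytes make hydrogen peroxide in mitochondria, peroxisomes and the endoplasmic reticulum, and glutathione peroxidases and catalase reduce it to water. Selenoproteins carry the amino acid selenocysteine, which is read from a UGA codon that would otherwise stop translation, and the liver packs selenium into selenoprotein P and secretes it to feed other organs. NRF2, encoded by Nfe2l2, is a transcription factor held back by KEAP1 until oxidants or electrophiles release it. It then binds antioxidant response elements with a small MAF partner and raises genes for glutathione synthesis, quinone reduction, thioredoxin reduction and haem breakdown.

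The coding sequence around the selenocysteine codon is shown for the 5 selenoprotein genes of the set, since this codon is what they share and catalase and the other genes lack. Each line runs 5′ to 3′ on the coding strand from 4 codons before the site, was read from GENCODE vM21 transcripts on GRCm38 (mm10), and has the selenocysteine TGA in capitals.
Gpx1: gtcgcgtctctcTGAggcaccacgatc
Gpx3: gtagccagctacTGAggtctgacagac
Gpx4: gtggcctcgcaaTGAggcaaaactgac
Selenop: cttcaagccagcTGAtacttgtgtctt
Txnrd1: cagtctggctgcTGAggttaa
The codon lies in exon 1 of Gpx1 at chr9:108339451-108339453, in exon 2 of Gpx3 at chr11:54907256-54907258, in exon 3 of the longest Gpx4 transcript at chr10:80054737-80054739, in exon 2 of Selenop at chr15:3274848-3274850 and in exon 15 of Txnrd1 at chr10:82896037-82896039, all on the plus strand. Selenop has 10 such codons, of which the first is shown, and each of the other genes has 1. In Txnrd1 it is codon 612 of 613, with a glycine codon between it and the stop, whereas in Gpx1 it is codon 47 of 201 and in Gpx3 codon 73 of 226. These numbers hold for the transcript of each gene with the longest coding sequence among those carrying the codon, and Txnrd1 has 8 transcripts. Of the 27 bases shown, Gpx1 and Gpx4 share 17, Gpx3 and Gpx4 share 16 and Gpx1 and Gpx3 share 13, against 8, 7 and 8 shared with Selenop by Gpx1, Gpx4 and Gpx3.

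Promoters were searched for the core of the antioxidant response element, TGACNNNGC, on both strands from 250 bases before to 50 bases after each RefSeq start on GRCm38. Of the 10 genes, 8 had a promoter entry, and the core was found in Gclm and in 1 of 3 promoters of Txnrd1. Both matches lie on the minus strand and are given on the plus strand with the match in capitals, because these are the letters NRF2 is known to bind. Gclc and Hmox1 were not searched.
Gclm: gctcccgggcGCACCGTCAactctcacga
Txnrd1: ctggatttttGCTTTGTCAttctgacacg
The first lies at chr3:122245413-122245441, and the second at chr10:82859104-82859132. Of all 32851 promoters, 4071 (12.4%) held the core, so a match is common and is a description of the letters alone.

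The estimated depth ran from 7350000 to 33440000 reads a library, with a median of 16050000, and the FPKM sum from 499870 to 988500. All 8 periportal markers were higher in zone 1 and all 8 pericentral markers higher in zone 3, averaged over stages, as the zone labels say. Hepatocyte markers were detected in every library, and the summed FPKM of 5 adipocyte markers was at most 0.37. However, 6 libraries carried a Y-linked FPKM sum (Ddx3y, Eif2s3y, Kdm5d and Uty) of 7.92 to 23.2, against at most 2.97 in the other 21, although every library is labelled female. Among NP mice they were replicate 1 of zone 1 and replicate 2 of zone 3. At dpc8 they were replicate 1 of zone 1 and replicate 2 of zone 2, and at dpc16 replicate 3 of both zone 2 and zone 3. The same 6 had summed levels of 10 connective tissue and smooth muscle markers of 982 to 4627 FPKM, against 84.7 to 575 in the others. Results are therefore also given without these 6 libraries.

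By median FPKM over all libraries, Selenop was the most abundant gene of the set at 3458 FPKM, followed by Gpx1 at 2097 and Cat at 1021. Gclm stood at 276, Gpx4 at 117, Gclc at 78.3 and Txnrd1 at 69.2, while Hmox1 (15.7), Nqo1 (11.5) and Gpx3 (4.70) were low. FPKM is scaled by gene length and by the reads of the library, so levels of different genes can be set side by side. Between libraries the FPKM sum differed, from 499870 to 988500. The 10 genes together took 0.667% to 1.61% of the FPKM of a library. Group means differed least for Gpx4, by 1.57-fold from lowest to highest, and most for Gpx3, by 163-fold.

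**Figure D1:**
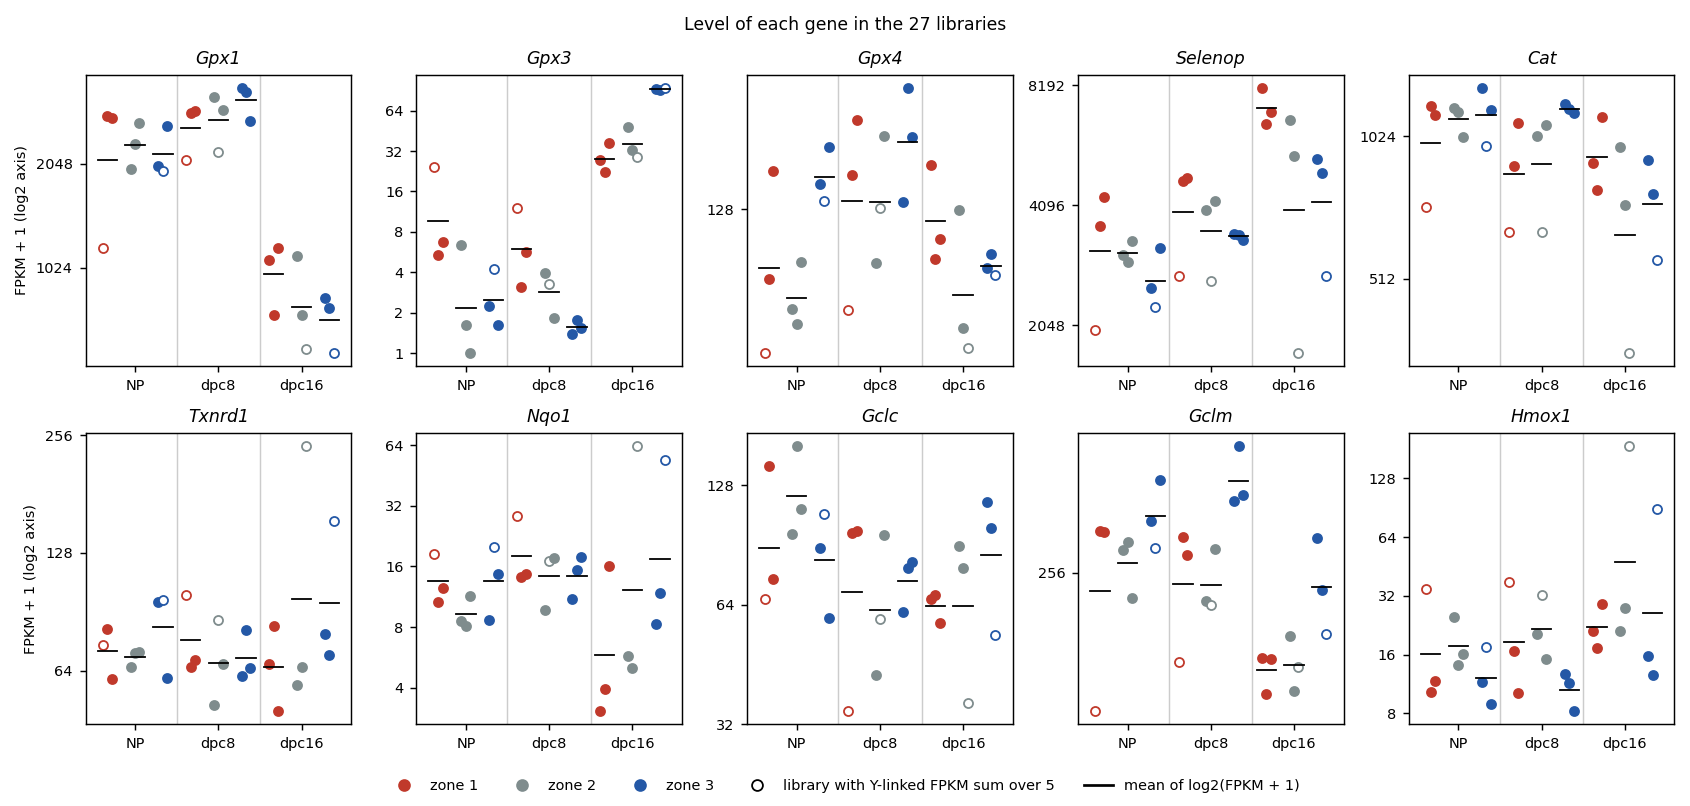
Expression of each gene in the 27 libraries, as FPKM + 1 on a log2 axis, by stage and zone (colour). Open circles are the 6 libraries with a Y-linked FPKM sum over 5 and bars are the mean of log2(FPKM + 1) in each group. Gpx1 was at most 1170 FPKM in all 9 dpc16 libraries, and Gpx3 was at least 21.1 FPKM in them and at most 23.5 FPKM in the other 18.

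Gpx1 encodes the abundant cytosolic and mitochondrial glutathione peroxidase. In NP mice its FPKM was 1169, 2828 and 2791 in the 3 libraries of zone 1, 1979, 2338 and 2690 in zone 2, and 2019, 1951 and 2644 in zone 3. At dpc16 it was 1081, 745 and 1170 in zone 1, 1103, 748 and 594 in zone 2, and 836, 783 and 579 in zone 3. Every dpc16 library of zones 2 and 3 lay below every NP library of its zone, and in zone 1 the groups overlapped only through NP replicate 1, one of the libraries with Y-linked FPKM. The mean was 2.86-fold lower at dpc16 in zone 2 and 3.01-fold lower in zone 3. On the log2(FPKM + 1) scale, Gpx1 fell by 1.55 in zone 2 (SE 0.32, adjusted p = 0.00686, limma with Benjamini-Hochberg adjustment over all genes tested) and by 1.59 in zone 3 (adjusted p = 0.00863). In a fit of only the 6 libraries of each comparison these calls were lost (adjusted p = 0.302 and 0.0990, with 17 and 40 genes called in all), and the zone 3 call was also lost without NP zone 3 replicate 3 (-1.45, adjusted p = 0.0654).

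In zone 1 the Gpx1 difference of -1.10 did not pass the test as deposited (95% interval -1.75 to -0.44, adjusted p = 0.0996). Of 8 alternative settings only 4 left it without a call, and the values ran from -1.71 to -1.10. Without NP replicate 1 alone Gpx1 fell by 1.52 there (limma, adjusted p = 0.00971). Without all 6 libraries with Y-linked FPKM it fell by 1.52 (limma, adjusted p = 3.3e-04), and it also fell by 1.35 in zone 2 and 1.51 in zone 3. Averaged over the zones, Gpx1 fell by 1.41 with all libraries (adjusted p = 1.4e-05). P-values of averages over zones may be too small, since libraries of different zones may share animals. With the replicate number as a block the adjusted p of this average was 1.5e-04.

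The lower level of Gpx1 was seen at dpc16 and not at dpc8. At dpc8 Gpx1 stood at 2097, 2882 and 2920 FPKM in zone 1, 3190, 2218 and 2930 in zone 2 and 3404, 3310 and 2726 in zone 3. All 9 of these values lie above all 9 dpc16 values, and in zone 3 the 3 dpc8 values lie above the 3 NP values as well. Against dpc8, Gpx1 fell by 1.41 in zone 1 (limma, adjusted p = 0.0209), 1.80 in zone 2 (adjusted p = 0.00306) and 2.11 in zone 3 (adjusted p = 4.9e-04), where the mean was 4.30-fold lower at dpc16. Each of these calls held without the 6 libraries. In zone 1 the call was lost when any of 4 single libraries was left out, dpc8 replicates 2 and 3 and dpc16 replicates 1 and 2 (adjusted p = 0.0810, 0.0837, 0.0612 and 0.135). In fits of only the 6 libraries compared, the zone 3 call was kept (0.0187) and those of zones 1 and 2 were lost (0.0652 and 0.409).

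Gpx3 encodes a secreted glutathione peroxidase found in plasma, most of which is made by the kidney. It was low in the NP liver: 23.5, 4.36 and 5.69 FPKM in zone 1, 5.38, 0.615 and 0 in zone 2, and 1.25, 3.22 and 0.605 in zone 3. At dpc16 it reached 26.4, 21.1 and 35.7 FPKM in zone 1, 47.7, 31.8 and 27.7 in zone 2, and 92.4, 90.3 and 93.7 in zone 3. The 3 dpc16 libraries of zone 3 were the highest of the series with a mean of 92.1 ± 1.70 (SD, n = 3), one of them being a library with Y-linked FPKM. In zones 2 and 3 the dpc16 values were all above the NP values, and in zone 1 the highest NP value lay between the lowest and the middle dpc16 value.

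Against NP, Gpx3 rose by 4.04 log2 units in zone 2 (SE 0.59, limma, adjusted p = 3.5e-04) and by 5.23 in zone 3 (SE 0.59, adjusted p = 1.6e-05). The scale of log2(FPKM + 1) understates the change of so low a gene: the ratio of mean FPKM was 17.9 in zone 2 and 54.5 in zone 3. In zone 1 the difference of 1.55 did not pass the test (95% interval 0.32 to 2.79, adjusted p = 0.283). Without the 6 libraries, which removes the NP value of 23.5, it was 2.23 in zone 1 (limma, adjusted p = 0.0409). The zone 2 and zone 3 values were then 4.20 and 5.60, both past the test. With only the 6 libraries of each comparison fitted, the zone 3 call was kept (limma, adjusted p = 0.00562) and the zone 2 call was lost (0.108).

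At dpc8 Gpx3 remained low, at 11.02, 2.12 and 4.70 FPKM in zone 1, 2.97, 2.28 and 0.809 in zone 2, and 0.388, 0.773 and 0.536 in zone 3. These values overlap those of NP mice in every zone. From dpc8 to dpc16 Gpx3 rose by 3.64 in zone 2 (limma, adjusted p = 0.00137) and by 5.90 in zone 3 (adjusted p = 3.8e-06). In zone 1 the difference of 2.23 had an adjusted p of 0.0528, and of 0.0470 with the replicate number as a block. Without the 6 libraries it was 2.74 (limma, adjusted p = 0.00863), and array weights gave an adjusted p of 0.00149. In fits of only the 6 libraries compared, the zone 2 call was lost (0.0799) and the zone 3 call kept (9.6e-05).

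The order of the zones in Gpx3 was not the same at each stage. Gpx3 was higher in zone 1 than in zone 3 by 1.95 log2 units in NP mice (limma, adjusted p = 0.164) and by 1.94 at dpc8 (adjusted p = 0.126), and lower in zone 1 by 1.73 at dpc16 (adjusted p = 0.255). The NP difference was 1.27 without NP zone 1 replicate 1. At each stage the values of the 2 zones did not overlap, yet no difference passed the test over all genes. The dpc8 difference passed with the block (adjusted p = 0.0476) and with array weights (0.0424), and the dpc16 difference passed with array weights (0.0200) and in a fit of only its 6 libraries (0.0166). The highest zone 1 values of NP and dpc8 mice, 23.5 and 11.02 FPKM, are from libraries with Y-linked FPKM. Without the 6 such libraries the differences were 1.66, 1.44 and -1.71 in NP, dpc8 and dpc16 mice (limma, adjusted p = 0.296, 0.242 and 0.156). Gene-wide, 6.63% of genes at NP and 12.8% at dpc8 were likewise higher in zone 1 without overlap, and 6.39% at dpc16 were lower. The change from NP to dpc16 was 3.68 log2 units smaller in zone 1 than in zone 3 (SE 0.84, unadjusted p = 2.4e-04 in limma), which had an adjusted p of 0.314 over all genes tested, and of 0.0761 with the block.

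**Figure D2:**
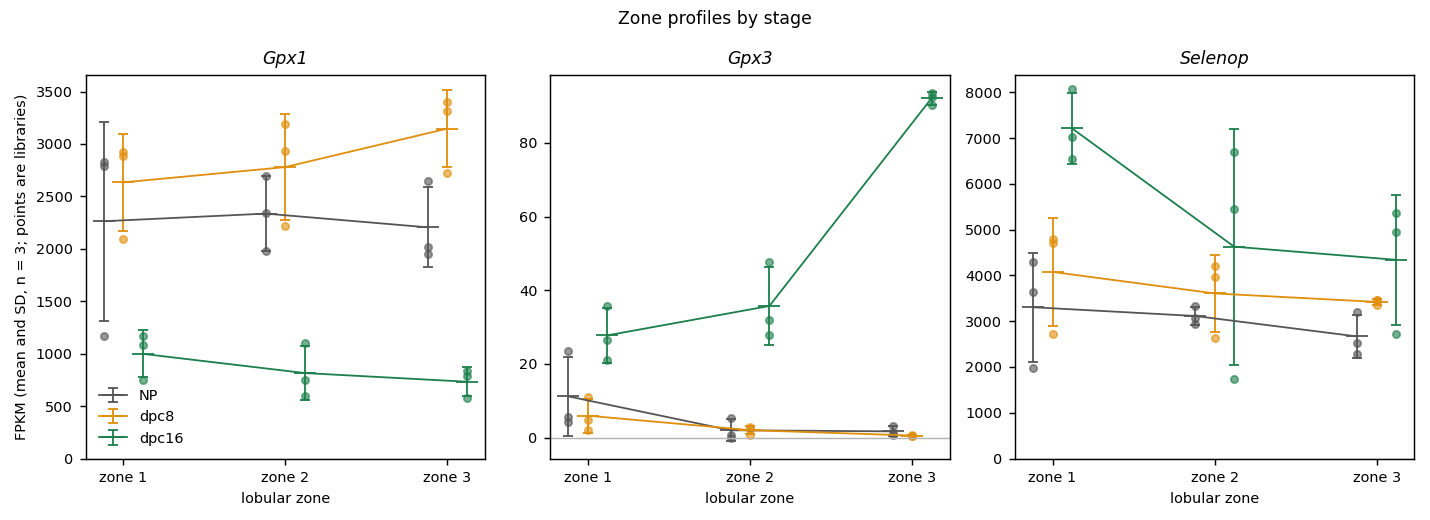
FPKM of Gpx1, Gpx3 and Selenop by zone at each stage, on linear axes. Bars are the mean and SD of 3 libraries, points are libraries and lines join the means. The mean of Gpx1 at dpc16 lay below the means of both other stages in every zone, and Gpx3 at dpc16 ran from 21.1 to 35.7 FPKM in zone 1 and from 90.3 to 93.7 in zone 3.

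Gpx4, which reduces lipid peroxides within membranes and so restrains ferroptosis, had the narrowest range of group means in the set. Its FPKM ranged from 84.1 to 152 in NP libraries, 95.2 to 180 at dpc8 and 85.2 to 144 at dpc16. The mean in zone 3 was 139 ± 11.2 in NP mice and 108 ± 3.39 at dpc16 (SD, n = 3), and these values did not overlap, but the difference of -0.36 did not pass the test (limma, adjusted p = 0.618). Averaged over zones, the dpc16 difference was -0.05 with a 95% interval from -0.33 to 0.22. Rescaled to a common total it was -0.44 (limma, adjusted p = 0.00706), where the median of all genes was -0.31. Against dpc8, whose zone 3 values of 129.6, 179.6 and 156 FPKM lay above those of dpc16, the zone 3 difference was -0.50 (limma, adjusted p = 0.352). That difference passed with array weights (adjusted p = 0.0242) and with rescaling (-0.76, adjusted p = 0.0271).

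Selenop encodes selenoprotein P, the selenium carrier of plasma. In zone 1 its FPKM was 1986, 3629 and 4297 in NP mice, 2713, 4715 and 4798 at dpc8, and 8070, 6548 and 7015 at dpc16, so that the dpc16 values did not overlap those of either earlier stage. In zone 2 it was 3062, 2944 and 3333 in NP mice and 6685, 5454 and 1742 at dpc16. In zone 3 it was 2531, 2275 and 3190 in NP mice and 5360, 4940 and 2718 at dpc16. The low values of 1742 and 2718 are those of the dpc16 libraries with Y-linked FPKM, and the lowest NP values of zones 1 and 3 are also from such libraries.

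Averaged over zones, Selenop rose by 0.74 (SE 0.23, limma, adjusted p = 0.0409), and the call was lost with the replicate number as a block (adjusted p = 0.111) and in a fit of only the NP and dpc16 libraries (0.0886). Leaving out single libraries moved the value between 0.61 and 0.94, and the call was kept only without NP zone 1 replicate 3, NP zone 3 replicate 3 or replicate 3 of dpc16 zone 2 or zone 3, among 18 such fits. In no single zone did Selenop pass the test with all libraries as deposited, with 1.19 in zone 1 (adjusted p = 0.183), 0.36 in zone 2 and 0.66 in zone 3, whereas array weights gave adjusted p of 0.0167, 0.0250 and 0.0359. Without the 6 libraries Selenop rose in each zone, by 0.86, 0.96 and 0.86 in zones 1, 2 and 3 (limma, adjusted p = 0.00144, 4.5e-04 and 0.00365). The rise also depended on scaling. Setting every library to the same FPKM total moved the median of all genes to -0.31 for this average (to -0.56, -0.18 and -0.20 in zones 1 to 3), and Selenop was then 0.34 higher. Quantile normalization gave 0.10 for the average. It brought the zone 1 value from 1.19 to 0.035 and turned the zone 2 value to -0.09. Under rescaling to a common total Gpx1 was -1.81 and Gpx3 3.44, so these changes were larger in size than the median of -0.31.

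Cat encodes catalase, the peroxisomal enzyme that clears hydrogen peroxide without glutathione. In zone 2 its FPKM was 1175, 1149 and 1021 in NP mice and 971, 731 and 356 at dpc16, and in zone 3 it was 1294, 974 and 1160 against 912, 774 and 560. The dpc16 values lay below the NP values in both zones, with the lowest from libraries with Y-linked FPKM. Neither difference passed the test in the fit of all libraries as deposited (-0.81, adjusted p = 0.185 and -0.63, adjusted p = 0.473 in limma), and in zone 1 the groups overlapped. Averaged over zones the difference was -0.51 (95% interval -0.89 to -0.13, limma, adjusted p = 0.0740), and without the 6 libraries Cat fell by 0.42 (adjusted p = 0.00634). The average also passed with array weights (adjusted p = 0.00667), rescaling (-0.91, adjusted p = 4.3e-06) and quantile normalization (-0.79, adjusted p = 9.4e-05), and did not with the block (0.202). Rescaling moved the median of all genes to -0.31 for this average. These 3 settings called 22.4%, 23.8% and 10.5% of all genes, against 11.8% in the fit as deposited.

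**Figure D3:**
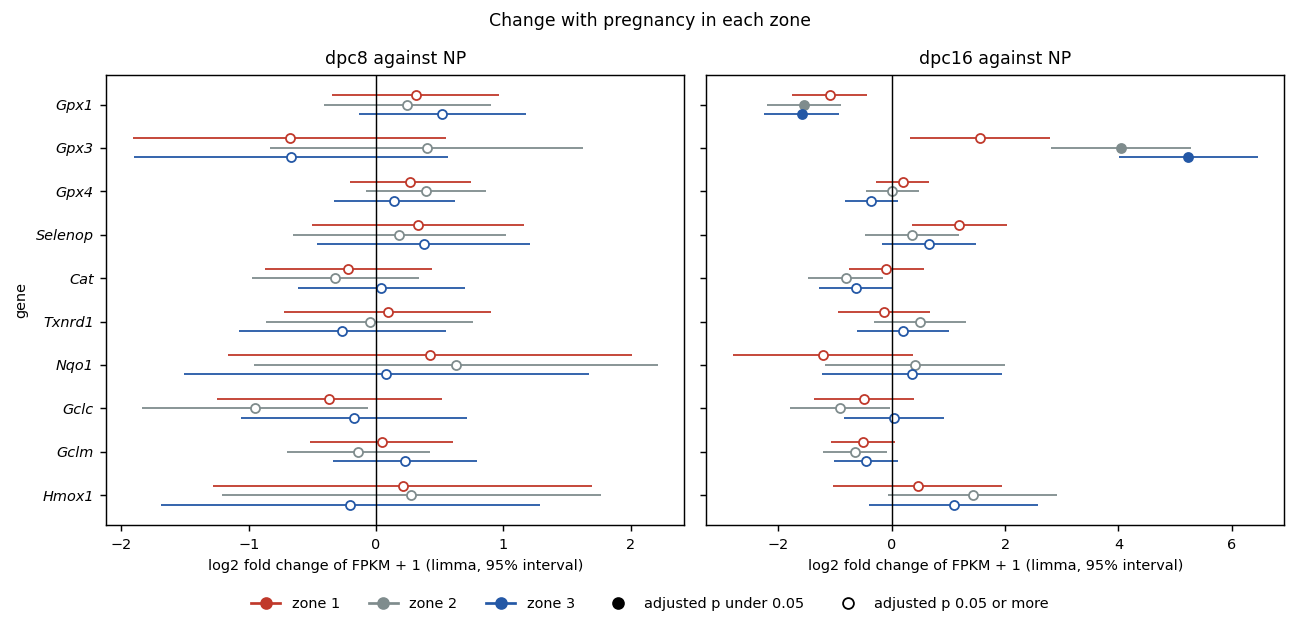
Difference of each gene from NP mice at dpc8 and dpc16 in each zone, as the log2 fold change of FPKM + 1 from limma with its 95% interval, and filled points where the adjusted p was under 0.05. The 4 filled points are Gpx1 and Gpx3 at dpc16 in zones 2 and 3, and none is filled at dpc8.

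Gclc and Gclm encode the catalytic and modifier subunits of glutamate-cysteine ligase, the rate-limiting enzyme of glutathione synthesis. Gclm in zone 1 was 138, 306 and 306 FPKM in NP mice and 175, 150 and 174 at dpc16. In zone 2 it was 282, 293 and 228 against 193, 151 and 168, without overlap, and in zone 3 it was 321, 285 and 384 against 297, 237 and 195. Averaged over zones Gclm fell by 0.53 (SE 0.16, limma, adjusted p = 0.0292), a call that was lost with the block (adjusted p = 0.1003), lost with only the NP and dpc16 libraries fitted (0.0564) and kept without the 6 libraries (-0.64, adjusted p = 5.0e-04). In 9 of 18 fits without a single library the call was lost (adjusted p up to 0.0712), with values between -0.66 and -0.47. The left-out libraries were replicates 2 and 3 of NP zone 1, 1 and 2 of NP zone 2, 3 of NP zone 3, 2 of dpc16 zones 1 and 2, and 2 and 3 of dpc16 zone 3. In no single zone did it pass the test in the fit of all libraries as deposited (-0.50, -0.64 and -0.45 in zones 1, 2 and 3). Without the 6 libraries Gclm fell by 0.88 in zone 1 (limma, adjusted p = 0.0103). Array weights gave adjusted p of 0.0297 in zone 1 and 0.0173 in zone 2.

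In the fit of all libraries as deposited, with no block or weights, Gclm was also the only gene of the set with a called difference between zones. Averaged over stages it was 0.55 lower in zone 1 than in zone 3 (SE 0.16, limma, adjusted p = 0.0387). The mean Gclm level of NP mice was 250 ± 96.9 FPKM in zone 1 against 330 ± 50.0 in zone 3, with 249 ± 67.4 and 385 ± 53.2 at dpc8, and 166 ± 14.4 and 243 ± 51.5 at dpc16 (SD, n = 3). The call was lost with only zones 1 and 3 fitted (adjusted p = 0.0738). It was also lost in 12 of 18 fits without a single library (adjusted p up to 0.0976) and kept only without replicate 2 or 3 of NP zone 1, replicate 2 of NP zone 3, replicate 2 or 3 of dpc8 zone 1 or replicate 3 of dpc16 zone 3. Zone 1 lay below zone 3 without overlap at dpc8 and at dpc16, but not in NP mice. Without NP zone 1 replicate 1, the library with Y-linked FPKM and the lowest Gclm value, the difference was -0.43. Without all 6 such libraries it was also -0.43, with an adjusted p of 0.0162 in limma, and in that fit Gclm was lower in zone 2 than in zone 3 as well, by 0.54 (adjusted p = 0.00725). The same fit called Selenop 0.48 higher in zone 1 than in zone 3 (adjusted p = 9.8e-04, and 0.0311 with array weights) and Hmox1 0.77 higher in zone 2 than in zone 3 (adjusted p = 0.0278). For Hmox1 the difference did not pass with all libraries (0.82, adjusted p = 0.544), the block (0.293) or array weights (0.0889). In the fit of all libraries 6 of 11 macrophage markers were called higher in zone 2 than in zone 3, with a median of 0.90 over the 11, and their part in the Hmox1 difference was not tested.

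Gclc was not called in any of the 21 comparisons in the fit of all libraries as deposited. Rescaled to a common total, it was called at dpc16 against NP in zone 2 (-1.21, adjusted p = 0.0414) and in the average (-0.85, adjusted p = 0.00482), where that scaling moved the median of all genes to -0.18 and -0.31. At dpc16 against NP, as deposited, its difference was -0.48 in zone 1 and -0.45 in the average over zones (95% interval -0.96 to 0.06, limma, adjusted p = 0.277), beside -0.50 and -0.53 for Gclm. Its FPKM in zone 2 was 95.3, 160 and 111 in NP mice, 41.5, 57.8 and 95.1 at dpc8, and 88.7, 78.2 and 35.2 at dpc16. Both pregnant groups lay below the NP group there, with differences of -0.95 at dpc8 and -0.92 at dpc16 that did not pass the test (adjusted p = 0.971 and 0.279 in limma). In zone 3 the dpc16 difference of Gclc was 0.04, with a 95% interval from -0.85 to 0.92, beside -0.45 for Gclm. Whether the 2 subunits differed in their change was not tested.

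Txnrd1 encodes cytosolic thioredoxin reductase, Nqo1 a quinone reductase and Hmox1 the inducible haem oxygenase. Hmox1 in NP mice was 33.5, 9.28 and 10.7 FPKM in zone 1, 23.8, 13.1 and 15.1 in zone 2, and 10.6, 16.4 and 7.95 in zone 3. At dpc16 it was 20.1, 16.4 and 28.1 in zone 1, 20.1, 26.8 and 187 in zone 2, and 14.8, 11.5 and 87.8 in zone 3. The values of 187 and 87.8 are those of the 2 dpc16 libraries with Y-linked FPKM, and the other dpc16 libraries lay within or close to the NP range.

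Nqo1 at dpc16 was 4.76, 3.999 and 62.5 FPKM in zone 2 and 7.30, 10.7 and 53.2 in zone 3, and Txnrd1 was 57.9, 64.5 and 239 in zone 2 and 78.3, 69.2 and 154 in zone 3. The same 2 libraries were thus the highest of the series for all 3 genes. In NP mice Nqo1 ranged from 7.08 to 18.9 FPKM and Txnrd1 from 59.9 to 96.1 over the 3 zones. In zone 1 at dpc16 Nqo1 was 2.06, 2.94 and 15.1 FPKM, below the NP values of 17.5, 9.64 and 11.5 in 2 of 3 libraries.

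No dpc16 difference of these 3 genes from NP mice or from dpc8 passed the test in the fit of all libraries as deposited. Nqo1 in zone 1 was 1.64 lower at dpc16 than at dpc8 (limma, adjusted p = 0.352), and array weights gave an adjusted p of 0.0390. The zone 2 difference from NP mice was 1.43 for Hmox1 (limma, adjusted p = 0.327), 0.49 for Txnrd1 and 0.40 for Nqo1. Without the 6 libraries these became 0.44, -0.16 and -0.79, so the sign turned for Txnrd1 and Nqo1. Averaged over zones Hmox1 was 0.99 higher (adjusted p = 0.136), and without the 6 libraries it rose by 0.64 (limma, adjusted p = 0.0247).

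The 10 connective tissue and smooth muscle markers had a high sum in these 2 libraries and in the 4 others with Y-linked FPKM. In dpc16 zone 2 their summed FPKM ran from 90.8 to 4627, in dpc16 zone 3 from 131 to 2552 and in dpc16 zone 1 from 87.3 to 228, against 150 to 2682, 106 to 256 and 204 to 982 in NP zones 1, 2 and 3. At dpc8 the sum ran from 144 to 3143 in zone 1, 84.7 to 4535 in zone 2 and 139.9 to 252 in zone 3. The dpc8 libraries at 3143 and 4535 had 36.8 and 31.5 FPKM of Hmox1, 27.5 and 16.1 of Nqo1, and 99.1 and 85.2 of Txnrd1. One of the 10, Cnn1, was at 0 in 11 of the 27 libraries. Single markers differed in range, with Tagln and Acta2 up to 2271 and 1857 FPKM but Dcn and Lum only up to 152 and 7.05. The 11 macrophage markers, which include Kupffer cell genes and were detected in every library, summed to 388 to 624 FPKM in NP zone 2 and 89.2 to 336 in dpc16 zone 2, and to 173 to 207 and 56.8 to 127 in zone 3. Biliary markers summed to 81.3 and 97.2 FPKM in the 2 dpc16 libraries with Y-linked FPKM, against 2.34 to 4.95 and 0.204 to 0.704 in the others of their groups. Hepatocyte markers summed to 46881 and 62090 FPKM in these 2, against 177820 to 225470 and 145220 to 154750 in the others. The part of any of these cell types in the levels of Hmox1, Nqo1 and Txnrd1 was not tested.

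**Figure D4:**
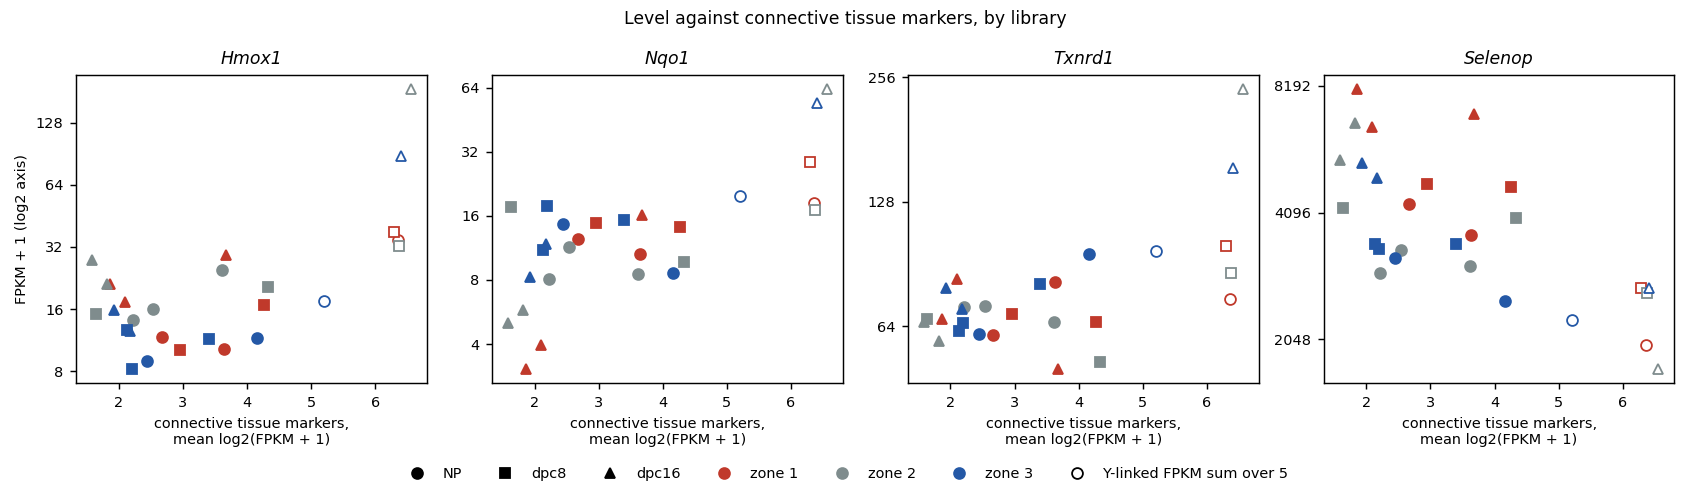
Hmox1, Nqo1, Txnrd1 and Selenop in each library (FPKM + 1, log2 axis) against the mean log2(FPKM + 1) of 10 connective tissue and smooth muscle markers. The 6 libraries with a Y-linked FPKM sum over 5 (open symbols) sit at 5.21 to 6.56 on the horizontal axis and the other 21 at 1.59 to 4.33. The 2 open triangles, from dpc16, are the highest points for Hmox1, Nqo1 and Txnrd1.

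Counted over the set, 2 of the 10 genes were called at dpc16 against NP in zone 2, 2 in zone 3 and 0 in zone 1, where 2.66%, 1.32% and 1.37% of all genes were called. In zone 1 a further 3 genes of the set (Gpx1, Gpx3 and Selenop) had an unadjusted p under 0.05, against 11% of all genes, and 4 were called there without the 6 libraries, a fit that called 2.92% of all genes in zone 1. For the average over zones, 4 of 10 were called, against 11.8% of all genes. The median log2 difference of the 10 genes was -0.10, beside -0.01 over all genes. From dpc8 to dpc16, 1, 2 and 2 genes were called in zones 1, 2 and 3, against 2.01%, 1.51% and 1.37% of all genes. These comparisons share the dpc16 libraries with those against NP. Without the 6 libraries Selenop was also called from dpc8 to dpc16 in each zone (0.59, 0.56 and 0.59 in zones 1 to 3, limma, adjusted p = 0.0198, 0.0461 and 0.0217) and Gclm in zone 1 (-0.79, adjusted p = 0.0170). With all libraries the Selenop values were 0.86, 0.18 and 0.28, none past the test, and quantile normalization turned these to -0.35, -0.45 and -0.11.

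At dpc8 against NP, 0 of the 10 genes passed limma in any zone or in the average. In this comparison 0.0309%, 0.00772% and 0.0154% of all genes were called in zones 1, 2 and 3, and 0.108% in the average. At an unadjusted p under 0.05 the only gene of the set was Gclc in zone 2, where 5.06% of all genes passed that level, beside 3.13% in zone 1, 2.74% in zone 3 and 6.11% in the average. The widest 95% intervals of the averages were those of Nqo1 (-0.54 to 1.30), Hmox1 (-0.77 to 0.95) and Gpx3 (-1.03 to 0.39), and the narrowest that of Gpx4 (-0.00444 to 0.54).

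Between zones 1 and 3, 0 of 10 genes were called at any single stage, where 1.34%, 1.61% and 1.55% of all genes were called in NP, dpc8 and dpc16 mice, and 1, 2 and 2 had an unadjusted p under 0.05, beside 8.02%, 12.2% and 7.86% of all genes. Averaged over stages 1 was called, Gclm, against 5.59%. Between zones 1 and 2 and between zones 2 and 3 no gene of the set (0 of 10) was called, where 0.919% and 1.88% of all genes were. At the unadjusted level 1 and 2 of the 10 passed, beside 6.33% and 10% of all genes. For the difference between zones in the dpc16 change, 0 of 10 genes were called in each of 3 contrasts, with Gpx3 at an unadjusted p under 0.05 in 2 of them. In the same contrasts 0.054% of all genes (zones 1 and 3), 0% (zones 1 and 2) and 0.0154% (zones 2 and 3) were called, and 3.16%, 4.29% and 2.47% had an unadjusted p under 0.05. For the dpc8 change between zones 1 and 3, 0 of 10 genes and 0% of all genes were called, and 2.36% of all genes but 0 of the 10 had an unadjusted p under 0.05.

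Other genes of the same pathways were counted from fixed lists. In the dpc16 average over zones used for these lists, 5.65% of all genes were called higher and 6.15% lower. Of 24 selenoprotein genes 21 were tested, and at dpc16, averaged over zones, 3 were higher and 2 lower than in NP mice, 3 of these 5 being Gpx1, Gpx3 and Selenop. The others were Selenos, an endoplasmic reticulum selenoprotein (0.46, limma, adjusted p = 0.0274), and Selenoo, a mitochondrial pseudokinase that transfers AMP to proteins (-0.67, adjusted p = 0.00447). With the block Selenoo kept its call (adjusted p = 0.0342) and Selenos lost it (0.0652). Under rescaling to a common total Selenos was 0.07 (adjusted p = 0.730). Of 9 tested genes that make selenoproteins or handle selenium, 0 passed limma in the same average, where 11.8% of all genes were called. Of the 9 differences 7 were negative, beside a median of -0.01 over all genes. Selenoh, a nucleolar selenoprotein, fell by 2.37 from dpc8 to dpc16 in zone 1 (limma, adjusted p = 0.00917), from 10.1 to 25.7 FPKM to 1.69 to 3.40 FPKM.

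Among 17 other enzymes of hydrogen peroxide and superoxide, 2 rose and 1 fell at dpc16 averaged over zones. Srxn1, the sulfiredoxin that repairs overoxidised peroxiredoxins and is a target of NRF2, rose by 0.82 (limma, adjusted p = 0.0139). Prdx4, the peroxiredoxin of the secretory pathway, rose by 0.57 (adjusted p = 0.0495), and Prdx6, a glutathione-dependent peroxiredoxin, fell by 0.45 (adjusted p = 0.0326). All 3 lost the call with the block (adjusted p = 0.0716, 0.122 and 0.0917), and under rescaling to a common total Srxn1 was 0.45 and Prdx4 0.18. Averaged over stages, 4 of the 17 were called lower in zone 1 than in zone 3 and 1 higher, where 5.59% of all genes were called in either direction. Prdx6, Prdx3 (mitochondrial) and Sod1 (the cytosolic superoxide dismutase) were lower by 0.77, 0.68 and 0.66 (limma, adjusted p = 5.8e-04, 0.0101 and 0.0402). The fourth, named after its values were seen, was Txn1, a thioredoxin (-0.58, adjusted p = 0.0382), which lost its call under rescaling (0.0867) and quantile normalization (0.115). Sod3, the extracellular superoxide dismutase, was higher by 0.64 (adjusted p = 0.0270) and lost its call under quantile normalization (0.129). Prdx6, for example, was 410 ± 104 FPKM in zone 1 and 737 ± 124 in zone 3 of NP mice (SD, n = 3).

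NRF2 and its regulators made a list of 9 genes, of which 3 rose and 1 fell at dpc16 averaged over zones. Nfe2l2 itself rose by 0.35 (limma, adjusted p = 0.0388), Sqstm1, the autophagy receptor that binds KEAP1, by 0.41 (adjusted p = 0.0416) and Mafk, a small MAF, by 0.63 (adjusted p = 0.0310). Each lost the call with the block (adjusted p = 0.0977, 0.103 and 0.0930), and under rescaling Nfe2l2 turned to -0.03 and Sqstm1 was 0.01. Mafg, another small MAF, fell by 0.94 (adjusted p = 0.00155) and kept the call with the block (0.00782) and without the 6 libraries (-1.17, adjusted p = 4.7e-04). In that last fit Sqstm1 was also called (adjusted p = 0.0117), and Nfe2l2 (0.0662) and Mafk (0.0966) were not.

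Of 17 other NRF2 targets, 1 rose, Srxn1, and 4 fell at dpc16 averaged over zones. The 3 with the largest differences were Aox1, an aldehyde oxidase (-1.31, limma, adjusted p = 8.9e-04), Ugdh, which makes UDP-glucuronate (-1.24, adjusted p = 1.4e-04), and Blvrb, a biliverdin and flavin reductase (-0.82, adjusted p = 0.00112). These 3 kept their calls with the block and without the 6 libraries. The other, named here after its values were seen, was Me1, the cytosolic malic enzyme (-0.72, limma, adjusted p = 0.0270), which lost its call with the block (0.0636) and kept it without the 6 libraries (-1.03, adjusted p = 6.0e-04). Ugdh in zone 1 ranged from 75.1 to 107 FPKM in NP mice and from 21.5 to 41.9 at dpc16, without overlap. Aox1 and Blvrb were also lower in zone 1 than in zone 3 averaged over stages, by 1.76 and 2.21 (adjusted p = 3.1e-05 and 7.3e-10), and Blvrb was 37.9 ± 10.1 FPKM in zone 1 and 164 ± 19.3 in zone 3 of NP mice (SD, n = 3).

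Of 12 tested genes of glutathione synthesis and turnover, 0 rose and 2 fell at dpc16 averaged over zones, Gclm and Cth. Cth, the cystathionine lyase that supplies cysteine, fell by 1.67 (limma, adjusted p = 2.6e-04) and kept the call with the block (0.00214), whereas Gclm lost it (0.1003). In zone 2 it was 209 to 400 FPKM in NP mice and 23.7 to 101 at dpc16. Of 4 genes of haem breakdown, Blvrb alone was called. For this average 5.65% of all genes were called higher and 6.15% lower (732 and 797 genes), and with rescaling 274 were higher and 2960 lower.

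The genes most alike in pattern to the called members, by Pearson's r of log2(FPKM + 1) over all 27 libraries, were Slc22a26 (0.94), Cyp2c23 (0.94) and Ndrg2 (0.93) for Gpx1, and Fndc3b (0.88), Gskip (0.86) and Eprs (0.86) for Gpx3. For Selenop they were Kng1 (0.95), Mttp (0.93) and Cfi (0.93), and for Gclm Lzts3, Cbr1 and C2cd2 (0.87 each). The libraries share stages, zones and the 6 libraries that stood apart, so these values describe the pattern only.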

How the data were processed

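RNA from laser-microdissected zones was ribosome-depleted and sequenced. Per the labels and the study's methods, reads were trimmed with cutadapt, aligned to mm10 with HISAT2 2.1.0, and quantified by the authors with Cuffdiff of Cufflinks 2.2.1 as FPKM of protein-coding genes. Deposited FPKM values are not counts, so log2(FPKM + 1) was fitted with limma 3.58.1 (R 4.3.3; trend and robust, 1 mean per group) for 12952 genes at FPKM 1 or more in 3 or more libraries. Tests were two-sided with Benjamini-Hochberg adjustment at 0.05, over 21 comparisons. Depth was estimated from the steps of low FPKM values; 1 read on 1 kilobase was worth 0.030 to 0.136 FPKM. Of 21823 identifiers, 21609 were in GENCODE vM21, and promoters came from RefSeq. Same-numbered libraries of different zones correlated over 0.1 in 9 of 9 pairs at dpc16 (0.263 to 0.863). They did so in 5 of 9 at dpc8 and 4 of 9 in NP mice. The highest value, 0.863, was between the 2 dpc16 libraries with Y-linked FPKM. Differently numbered dpc16 libraries of zones 2 and 3 also reached 0.561 and 0.593, so these correlations cannot tell whether numbers mark pairs. The reported fit used no pairs, and the replicate number within each stage was tried as a block (consensus correlation 0.193). Named list genes were at most 3 per direction, list and comparison, by size of the difference, and genes alike in pattern the 3 with the highest r. Members and lists were chosen with earlier results of these data known, and the analysis without the 6 libraries was chosen after seeing the data.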

Additional observations from a re-analysis of the deposited data

Results flagged for a closer look

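Gpx3 was the only gene of the set whose zone difference turned from one stage to another with no overlap between the zones at any stage. Zone 1 minus zone 3 was 1.95 log2 units in NP mice, 1.94 at dpc8 and -1.73 at dpc16, each over 3 libraries a zone. The NP value was 1.27 without NP zone 1 replicate 1. The difference between the NP and dpc16 values, -3.68, was tested in limma and did not pass over all genes (adjusted p = 0.314), nor under any of 8 alternatives (0.0515 with array weights to 0.995 with a pseudocount of 0.1). Without all 6 libraries with Y-linked FPKM, one of which holds the NP value of 23.5 FPKM, it was -3.37. The levels of zone 3 before dpc16 were at most 3.22 FPKM.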

How the results depend on the processing

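Over the 21 comparisons, 8 alternatives and the fits without 1 library gave 470 alternative values of the fold changes named and 378 of the counts. Of the fold changes, 395 kept direction and side of the threshold, 53 kept the direction and lost the call, 12 gained it and 10 turned sign. Of the counts, 323 stayed within 1.5 times. The share of all genes called moved with the setting too and is given in brackets.

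At dpc16 against NP the number of the 10 genes called in zone 1 was 0 (1.37%), and 3 with rescaling to a common total (5.12%), 1 with quantile normalization (1.32%), 4 with array weights (5.15%) and 4 without the 6 libraries with Y-linked FPKM (2.92%). In zone 2 it was 2 (2.66%), and 5 with rescaling (8.28%), 4 with array weights (8.5%) and 0 with only the groups compared (17 genes). With only the groups compared, zone 3 went from 2 to 1 (40 genes) and the average from 4 to 2 (1192 genes). At dpc16 against dpc8 the zone 1 count of 1 (2.01%) became 3 with rescaling (10.9%), 2 with quantile normalization (1.85%), 4 with array weights (7.77%), 4 without the 6 libraries (4.38%) and 0 with only the groups compared (118 genes). The zone 2 count of 2 (1.51%) became 5 with rescaling (6.6%) and 0 with only the groups compared (0 genes), and the zone 3 count of 2 (1.37%) became 5 with rescaling (5.45%) and 4 with array weights (12.1%). The dpc8 average went from 0 (0.108%) to 1 with quantile normalization (0.154%).

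Between zones 1 and 3, array weights gave 1 at dpc8 (6.6%, from 1.61%), 1 at dpc16 (3.83%, from 1.55%) and 2 for the mean of stages (11.2%, from 5.59%), only the groups compared gave 1 at dpc16 (149 genes) and 0 for the mean (751 genes), and the fit without the 6 libraries gave 2 for the mean (8.18%). Between zones 2 and 3 (1.88%) array weights gave 1 (4.81%) and the fit without the 6 libraries 2 (3.06%). With the replicate number as a block, the counts were 1 for zones 1 and 3 at dpc8 (2.88%), 2 for the dpc16 average against NP (6.8%) and 2 for dpc16 against dpc8 in zone 1 (2.16%). It changed no other count of the 10 genes by over 1.5 times.

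At dpc16 against NP, Hmox1 in zone 1 turned to -0.13 with rescaling. In zone 2, Txnrd1 turned to -0.039 with array weights and -0.16 without the 6 libraries, and Nqo1 to -0.57 and -0.79. In zone 3 Nqo1 turned to -0.25 and -0.19. Without single libraries, Txnrd1 in zone 2 ran from -0.16 to 0.86, Nqo1 from -0.79 to 1.047 in zone 2 and -0.46 to 0.89 in zone 3, and only the fits without replicate 3 of the dpc16 zone gave the negative values. The counts then ran from 0 to 1 for zones 1 and 3, mean of stages, 0 to 1, 1 to 2 and 2 to 4 for dpc16 against NP in zone 1, zone 3 and the average, and 0 to 2 for dpc16 against dpc8 in zone 1. The causes were not tested.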
